A study of Mus musculus with 2 samples.

Results

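Microexons are very short internal exons. The exons described here were the internal exons of 3 to 27 bases in annotated transcripts of protein-coding genes that had at least 10 informative reads in each of 2 long-read libraries. A read was informative when its transcript model had more than 1 exon and either held the microexon with both ends exact (an including read) or carried an intron that spanned it (a skipping read). The annotation held 2052 such exons in 1462 genes, and 370 of them in 314 genes reached the read minimum, out of 46758 internal exons of any length that did. The choice of exons used the number of informative reads and not the inclusion, which is the percentage of informative reads that were including reads.

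Total RNA from left cerebral cortex of adult B6NCrl mice aged 6 months had been sequenced as 2 libraries, labelled biological replicates 1 and 2 of a single group with no treatment and no allele. Both tissue samples carry the same donor record, so the spread between them may not be a spread between animals. One label names a male source while another leaves sex uncollected, and 4 Y-linked genes had 0 reads in both libraries. Replicate 1 held 1306424 reads and replicate 2 held 1304133 reads, of which 76.5% and 70.2% were on models with more than 1 exon. Markers of excitatory neurons, inhibitory neurons, astrocytes, oligodendrocytes, microglia, endothelial cells and choroid plexus were all detected, with summed levels between 38.3 CPM (reads scaled to library size, choroid plexus in replicate 2) and 4311 CPM (oligodendrocytes in replicate 1). The choroid plexus sum was mostly Ttr, with 73 reads in replicate 1 and 46 in replicate 2. Its other markers had few reads: Clic6 1 and 3, Folr1 3 and 0, and Kl 2 and 1. Slc32a1 of inhibitory neurons had 3 and 2. In bulk tissue, fewer cells of a type and less RNA per cell cannot be told apart.

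Many microexons are spliced in mainly in neurons, where the SR-related protein SRRM4 and its relative SRRM3 promote their recognition. Polypyrimidine tract binding proteins repress many of them in other cells. Microexons whose length is a multiple of 3 add or remove a few amino acids without shifting the reading frame, often at the surface of proteins of vesicle traffic, the cytoskeleton and the synapse. An exon this short is hard to read by alignment as well as by the spliceosome, since few of its bases can anchor a read.

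The following sequences show 6 microexons counted at intermediate inclusion, picked as examples after their values were seen. The skipping reads of one of them, Bsg, nearly all had introns with unusual ends, whose values are given with its results. Each run gives 24 bases of the upstream exon, the microexon in capitals and 24 bases of the downstream exon, 5′ to 3′ on the strand of the gene. All sequences are reference transcript sequence of GENCODE M21, and all positions are mm10.
Bsg, chr10:79711256-79711280, plus strand: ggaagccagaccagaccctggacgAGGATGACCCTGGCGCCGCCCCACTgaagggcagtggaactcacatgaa
Cd47, chr16:49908054-49908078, plus strand: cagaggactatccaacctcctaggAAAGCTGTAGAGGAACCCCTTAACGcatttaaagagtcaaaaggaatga
Vti1a, chr19:55387189-55387209, plus strand: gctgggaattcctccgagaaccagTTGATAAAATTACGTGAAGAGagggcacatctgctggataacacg
Dgkb, chr12:38087573-38087593, plus strand: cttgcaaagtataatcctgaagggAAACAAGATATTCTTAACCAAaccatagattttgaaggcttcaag
Sh3glb1, chr3:144699854-144699877, minus strand: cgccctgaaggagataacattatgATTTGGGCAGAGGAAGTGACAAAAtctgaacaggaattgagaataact
Nckap1, chr2:80571213-80571230, minus strand: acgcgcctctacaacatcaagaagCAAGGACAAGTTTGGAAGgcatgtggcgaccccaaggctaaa

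A further set shows 6 microexons that most informative reads held, 4 of them of 15 to 18 bases, which were chosen after their values were seen to stand beside short ones without reads.
Mef2c, chr13:83654598-83654621, plus strand: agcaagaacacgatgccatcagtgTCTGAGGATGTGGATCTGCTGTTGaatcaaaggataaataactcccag
Aplp1, chr7:30436179-30436202, minus strand: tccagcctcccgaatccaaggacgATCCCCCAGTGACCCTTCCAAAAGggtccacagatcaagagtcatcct
Kif1a, chr1:93072308-93072325, minus strand: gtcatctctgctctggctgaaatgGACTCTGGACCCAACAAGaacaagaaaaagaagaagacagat
Sptan1, chr2:30027631-30027648, plus strand: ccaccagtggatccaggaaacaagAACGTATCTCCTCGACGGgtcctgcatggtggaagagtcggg
Sugt1, chr14:79603470-79603486, plus strand: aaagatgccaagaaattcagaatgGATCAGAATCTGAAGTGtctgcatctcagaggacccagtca
Abi1, chr2:22963214-22963228, minus strand: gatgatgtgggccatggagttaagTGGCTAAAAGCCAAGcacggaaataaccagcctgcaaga

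The last set shows 4 short microexons that no read, or only 2 reads, held although the genes were well covered.
Uchl1, chr5:66676436-66676447, plus strand: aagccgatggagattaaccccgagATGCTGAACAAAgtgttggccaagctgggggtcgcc
Apbb1, chr7:105565946-105565951, minus strand: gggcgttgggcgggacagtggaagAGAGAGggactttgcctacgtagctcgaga
Hnrnpk, chr13:58393853-58393868, minus strand: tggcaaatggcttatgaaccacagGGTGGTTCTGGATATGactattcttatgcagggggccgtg
Cyth2, chr7:45808730-45808732, minus strand: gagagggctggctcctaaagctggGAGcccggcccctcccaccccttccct

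Inclusion of the 370 microexons fell into 2 extremes with a minority between them. The median was 55.7% in replicate 1 and 50% in replicate 2, against 100% in both libraries for the 46385 internal exons of 28 bases or more. At 90% or more in both libraries stood 125 microexons, at 10% or less in both stood 168, and from 10% to 90% in both, limits included, stood 53, of which 5 were at exactly a limit in a library. The other 24 lay on different sides of these limits in the 2 libraries. Of the longer exons, 90.9% were at 90% or more, 4.83% at 10% or less and 2.69% in between. These are counts of exons and carry no test, since exons are not replicates.

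**Figure D1:**
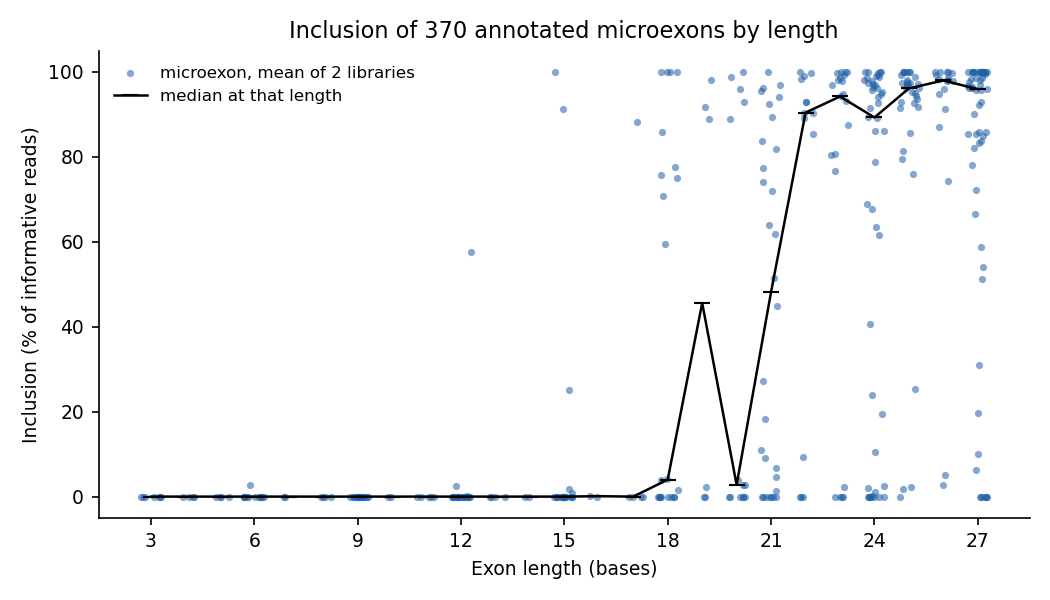
Inclusion (percent of informative reads, mean of 2 libraries) of each of the 370 microexons against its length in bases, with a small horizontal scatter. The line joins the median at each length, which is at most 4.01% up to 18 bases and between 89.3% and 98% from 22 bases on.

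Inclusion differed with length. In the 2 length classes of the design, the 100 microexons of 3 to 15 bases had a median of 0% in both libraries and the 270 of 16 to 27 bases had 89.7% in replicate 1 and 90% in replicate 2. Of 80 microexons of 3 to 14 bases, 76 had no including read in either library, and all 80 together had 11 including reads of 8679 informative reads in replicate 1 and 8 of 9761 in replicate 2. Of 27 microexons of 15 to 17 bases, 20 had no including read. The 72 of 18 to 21 bases had a median inclusion of 18.8% in replicate 1 and 11.8% in replicate 2, the 81 of 22 to 24 bases 91.5% and 90.9%, and the 110 of 25 to 27 bases 96.0% and 96.8%. Just above the limit, the 126 exons of 28 to 30 bases had 97.6% and 98.7%. The 5 finer classes were drawn after the values were seen.

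Few exceptions broke this order below 18 bases. A 12-base exon of Dnm2 (dynamin 2, which pinches vesicles from membranes) was on 10 of 13 reads in replicate 1 and 5 of 13 in replicate 2. A 15-base exon of Abi1, a subunit of the complex that starts actin branching, was on 33 of 36 reads and 30 of 33 reads. Another 15-base exon, of the membrane skeleton protein gene Sptan1, was on all 12 reads of replicate 1 and all 17 of replicate 2, and the 17-base exon of the chaperone adaptor gene Sugt1 was on 107 of 122 and 110 of 124 reads. Of the skipping reads of Sugt1, all 15 in replicate 1 and 12 of 14 in replicate 2 had an upstream exon longer than annotated. A 15-base exon of Porcn, whose enzyme adds a lipid to Wnt proteins, was on 3 of 12 reads in each library. The 55 microexons of up to 11 bases had 1 including read in all.

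The absence of including reads at 14 bases or less also held where the annotation has no transcript that skips the exon. There were 9 such microexons of up to 14 bases, and 0 of their 1398 reads in replicate 1 and 0 of 1400 in replicate 2 held the exon. Uchl1 supplied 1052 and 1049 of these reads, and the other 8 microexons had 0 including reads of 346 and 351. The 25 of 15 to 21 bases with no annotated skipping transcript had a median inclusion of 86.8% in replicate 1 and 87.9% in replicate 2, and the 107 of 22 to 27 bases had 98.9% and 98.8%. Where a skipping transcript is annotated, the 135 microexons of 18 to 27 bases had medians of 36.7% and 32.2%. Inclusion in these files is the share of reads whose model held the exon, so a value of 0 does not show that the RNA lacked it. Whether the skipping reads held the bases of the microexon was not tested, since neither reads nor a genome entered the comparison.

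The introns that spanned the microexons often ended away from the annotated neighbours. Annotated neighbours are here the exons beside the microexon in annotated transcripts that hold it. A spanning intron could join these neighbours directly. It could also leave 1 or both of them longer than in those transcripts, by 1 to 30 bases in sum (called an overhang here). The remaining introns used other sites, for example where a neighbour was skipped too. An overhang can end at a site that is annotated in other transcripts of the gene, so not every overhang lies outside the annotation. Overhangs were on 35.9% of the microexons' skipping reads in replicate 1 and 33.7% in replicate 2, against 0.680% and 0.735% for exons of 28 bases or more. They reached 55.2% and 51.7% at 15 to 17 bases. Among exons with at least 10 skipping reads, overhangs made up more than 50% of them for 64 of 214 microexons in replicate 1 and 59 of 206 in replicate 2, against 24 of 3295 and 30 of 3227 longer exons. The limit of 30 bases was set after the values were seen.

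**Figure D2:**
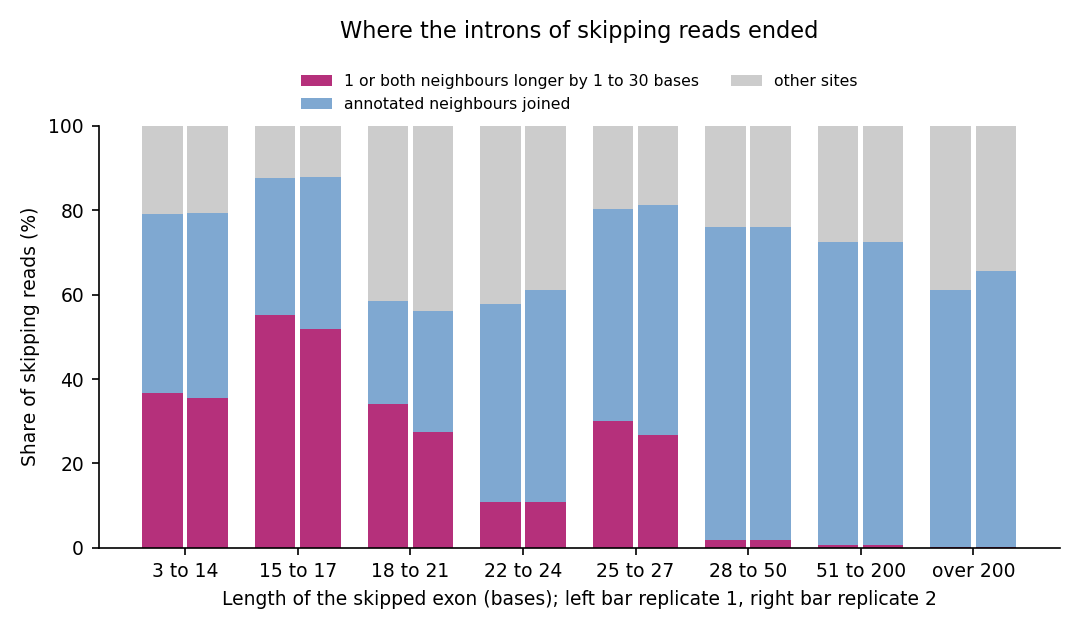
Share of skipping reads (percent, vertical axis) by where their introns ended, for exons grouped by length in bases, with replicate 1 in the left bar and replicate 2 in the right bar of each pair. Overhangs take 10.8% to 55.2% of skipping reads in the groups of up to 27 bases and at most 1.85% in the longer groups.

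Uchl1, which codes for a neuronal ubiquitin hydrolase, had the most such reads. None of 1052 reads in replicate 1 and 1049 in replicate 2 held its 12-base exon. By counting error alone this allows an inclusion of up to 0.285% and 0.286% (3 reads). That limit takes every skipping read as lacking the exon, which was not tested. The upstream exon ran 9 bases past its annotated end in 1033 and 1030 of these reads, and only 10 and 13 reads joined the annotated neighbours directly. The annotation has no Uchl1 transcript that skips this exon.

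Apbb1 codes for Fe65, an adaptor that binds the tail of the amyloid precursor protein, and its 6-base exon is known as a neuronal one. No read of 579 in replicate 1 and 524 in replicate 2 held it. In 451 and 409 reads the downstream exon began 6 bases earlier than in the transcripts that hold the microexon. Both ends of the intron in these reads are annotated splice sites of the gene. Another 121 and 106 reads joined the neighbours directly. A 13-base exon in the 5′ UTR of the same gene was on 0 of 473 and 0 of 394 reads, none with an overhang. The 6 overhanging bases lie in another annotated transcript and read CAACAG, against AGAGAG for the microexon.

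The 16-base exon of Hnrnpk, which codes for a ribonucleoprotein, was held by 0 of 532 reads in replicate 1 and 2 of 510 in replicate 2. An upstream overhang of the same length, 16 bases, was on 497 and 480 reads. Its bases could be read from an annotated transcript and differ from the microexon by an edit distance of 8.
Hnrnpk microexon: GGTGGTTCTGGATATG
Hnrnpk overhang: GTTGAGTATCAATAAT

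Cyth2 codes for cytohesin 2, an exchange factor for ARF GTPases, and its 3-base exon is one of 7 exons of that length. It was on 0 of 199 reads in replicate 1 and 0 of 211 in replicate 2, and 131 and 159 of these reads carried a 4-base upstream overhang. Further exons showed overhangs close to their own length, among them the 9-base exons of Emc1 and Cyld, which are printed as the closest matches among the longer exons, with edit distances of 3 and 2. Over all 32 microexons whose leading overhang could be read from an annotated transcript, the edit distance ranged from 1 to 16 with a median of 8. It was at most 3 for 7, of which 5 were exons of 6 bases or less. An edit distance cannot be smaller than the difference in length, and no unrelated bases were compared. These values therefore do not decide whether overhangs resemble the microexons.
Emc1 microexon: CGATTCAAG
Emc1 overhang: CGACACCAG
Cyld microexon: CTTTATCAG
Cyld overhang: CTGTTTCAG
These were picked after their values were seen.

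Over all microexons with at least 20 skipping reads in sum, overhangs made up more than 50% of the skipping reads for 63 of 207. In 30 of the 63 the leading overhang was within 3 bases of the length of the microexon, and in 12 it was 4 bases long. The overhang lay on the upstream exon in 48 and on the downstream exon in 13. Of the 63, 39 had no including read and 38 were up to 17 bases long.

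Overhangs also touched some microexons at intermediate use. Of the 53, 37 stayed between 10% and 90% in both libraries once reads with an overhang were left out, 10 came to 90% or more in both, 3 came to lie on different sides of the limits and 3 had fewer than 10 reads left. Since only skipping reads can have an overhang, leaving them out can raise inclusion but not lower it. Bsg (basigin, a membrane glycoprotein that accompanies lactate transporters) had the most reads of them. Its 25-base exon was on 1221 of 1511 reads in replicate 1 and 1087 of 1328 in replicate 2, an inclusion of 81.3% ± 0.739 (SD, n = 2). All 290 skipping reads of replicate 1 and 98.3% of those in replicate 2 had an overhang, most often of 28 bases on the downstream exon. Without them the inclusion was 100% and 99.6%.

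Uqcrh (a hinge subunit of respiratory complex III) behaved like Bsg. Its 21-base exon was on 301 of 424 and 438 of 568 reads, and leaving out reads with an overhang, mostly of 13 bases, gave 99.7% and 99.6%. The 19-base exon of the ubiquitin ligase gene Rnf5, on 230 of 256 and 169 of 192 reads, went to 100% in both. These 3 genes have no annotated transcript that skips the exon.

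Of the 53 intermediate microexons, 20 lay in genes on lists of vesicle traffic, adhesion, the cytoskeleton, signalling, channels and nuclear proteins, and 33 on none of these lists. The lists of roles behind the following counts were compiled with earlier results of these data known, so they are given as descriptions. They do not hold every gene of a role.

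**Figure D3:**
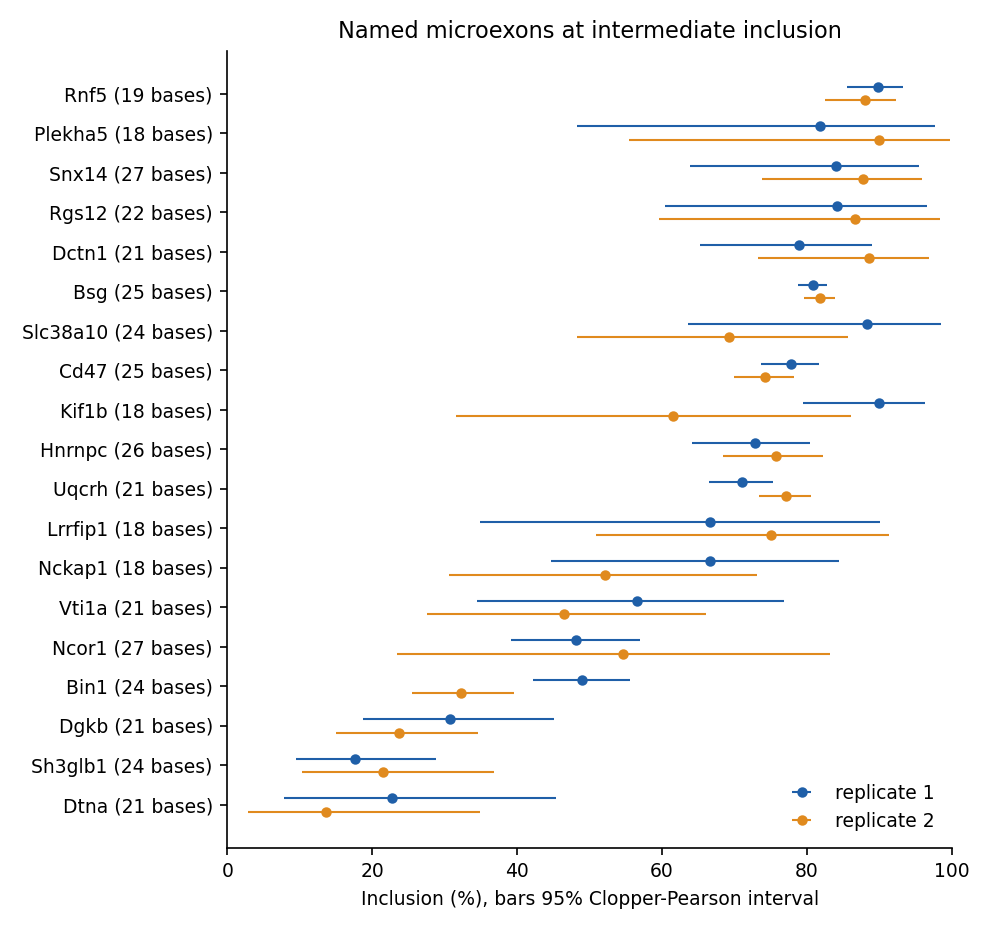
Inclusion (percent) of 19 microexons at intermediate use, those with most reads per role, in replicate 1 (upper point) and replicate 2 (lower point) with 95% Clopper-Pearson intervals. The intervals of the 2 libraries overlap for 18 of them, and those of Bin1 do not.

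In vesicle traffic, 27 microexons of 23 genes were covered, of which 6 were at 90% or more in both libraries, 6 were intermediate, 14 were at 10% or less and 1 was mixed, beside 125, 53, 168 and 24 among all 370. Bin1 (amphiphysin 2, a membrane-bending protein) had its 24-base exon at chr18:32429700-32429723 on 111 of 227 reads in replicate 1 and 59 of 183 in replicate 2, or 48.9% and 32.2%. The mean of 40.6% became 23.5% with known transcripts alone. Sh3glb1 (endophilin B1) had its 24-base exon on 12 of 68 and 9 of 42 reads. Vti1a, a SNARE of vesicles from the trans-Golgi network, had its 21-base exon on 13 of 23 and 13 of 28 reads. The 27-base exon of the sorting nexin gene Snx14 was on 21 of 25 and 36 of 41 reads. At the other extreme, the 24-base exons of Amph (amphiphysin, at nerve terminals) were on 71 of 71 and 72 of 72 reads in replicate 1 and on 46 of 48 and 45 of 48 in replicate 2. The 12-base exon of the vesicle protein gene Rph3a was on 0 of 65 and 0 of 51 reads, with an overhang on 63 and 50 of them.

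Of 10 microexons on the adhesion list, 2 were intermediate, 1 was high, 5 were low and 2 were mixed. The list includes Lrrfip1, which is not an adhesion gene, and without its 2 exons the 8 others held 1 intermediate, 1 high, 4 low and 2 mixed ones. The 18-base exon of Lrrfip1 was on 8 of 12 and 15 of 20 reads. The exons of Ncam1 of 3 and 15 bases were each on 0 of 57 and 0 of 60 reads.

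Of 22 cytoskeletal microexons in 16 genes, 5 were intermediate, 4 high, 11 low and 2 mixed. Dctn1 codes for the dynactin subunit that grips microtubules and had 4 covered microexons. Its 21-base exons were on 8 of 20 and 5 of 10 reads at the upstream site and on 41 of 52 and 31 of 35 reads at the downstream one, while its exons of 18 and 15 bases were on none of 20 and 10 and none of 93 and 84 reads. A further 32 and 25 reads overlapped the 18-base exon with other ends and were not counted. The 21-base exon at the downstream site was at 0% with known transcripts alone, on 8 reads, against 83.7% over all models. Nckap1, of the same actin complex as Abi1, had its 18-base exon on 16 of 24 and 12 of 23 reads. The 21-base exon of Dtna, which codes for α-dystrobrevin, was on 5 of 22 and 3 of 22 reads, or 18.2%, which became 9.79% without incomplete matches to known transcripts (31 reads) and 0% with known transcripts alone (7 reads). Kif1a, a kinesin that carries synaptic vesicle precursors, had its 18-base exon on all 45 and all 43 reads. Its relative Kif1b had one of the same length on 54 of 60 and 8 of 13 reads, and 4 of the 6 and all 5 skipping reads there had an overhang. Its mean of 75.8% became 98.2% without reads that had an overhang and 14.3% without incomplete matches, on 9 reads.

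On the list of kinases, phosphatases, GTPase regulators and lipid signalling, 18 microexons of 15 genes held 3 intermediate, 6 high, 7 low and 2 mixed ones. The list includes the adaptor genes Apbb1 and Apbb2, and without their 3 exons the 15 others held 3 intermediate, 6 high, 4 low and 2 mixed ones. Dgkb, a diacylglycerol kinase, had its 21-base exon on 16 of 52 reads in replicate 1 and 19 of 80 in replicate 2. Its mean of 27.3% became 44.0% without incomplete matches, on 63 reads, and 19.3% with known transcripts alone, on 24 reads. A 22-base exon of Rgs12, a regulator of G-protein signalling, was on 16 of 19 and 13 of 15 reads. Without reads that had an overhang, it was at 94.1% and 100%. Its mean of 85.4% became 100% with annotated ends of the skipping intron and 58.6% without incomplete matches, on 12 reads. An 18-base exon of Plekha5 was on 9 of 11 and 9 of 10 reads. Its mean of 85.9% became 37.5% without incomplete matches, on 5 reads. The 22-base exon of Camkk2, a kinase that activates CaM kinases, was on 210 of 211 and 85 of 85 reads. Of 9 microexons of channels, receptors and transporters, 2 were intermediate, 2 high and 5 low. A 24-base exon of the amino acid transporter gene Slc38a10 was on 15 of 17 and 18 of 26 reads. In Cacnb4, a subunit of voltage-gated calcium channels, one 20-base exon was on 150 of 156 and 73 of 76 reads and a neighbouring one of the same length on 0 of 157 and 0 of 76.

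Of 8 nuclear and RNA-processing microexons, 2 were intermediate, 2 high, 3 low and 1 mixed. Mef2c codes for a transcription factor of neurons and muscle, and its 24-base exon, known as exon β, was on 425 of 431 reads in replicate 1 and 431 of 441 in replicate 2. Ncor1, a corepressor, had its 27-base exon on 62 of 129 and 6 of 11 reads. Its mean of 51.3% became 74.15% without incomplete matches, on 46 reads. Hnrnpc had a 26-base exon of the 5′ UTR on 91 of 125 and 122 of 161 reads, a mean of 74.3%, against 95.8% with known transcripts alone. Outside the lists, 276 microexons held 33 intermediate, 104 high, 123 low and 16 mixed ones. Among these, Cd47, the integrin-associated protein that restrains phagocytes, had its 25-base exon on 344 of 442 and 329 of 443 reads, or 76.1% ± 2.52 (SD, n = 2), with 1 overhang read in all, and 91.5% with known transcripts alone.

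The high group was led by genes of large output. The microexons with most reads at 90% or more were in Rpl41 (ribosomal protein L41), Selenow (selenoprotein W), Ptgds (prostaglandin D2 synthase), Gpx4 (glutathione peroxidase 4), Aplp1 (an amyloid precursor-like protein), Mef2c and Atp5mpl (a small subunit of ATP synthase). The 23-base exon of Rpl41 at chr10:128548658-128548680 was on 2721 of 2767 and 3070 of 3106 reads. Its other 2 microexons share their lower genomic position and differ by 2 bases, so that reads of one form are not informative on the other. The 25-base form was on 2485 of 2486 and 2808 of 2810 informative reads, and the 23-base form on 68 of 69 and 74 of 76. Both therefore count as high, although far fewer reads held the 23-base form. Aplp1 had its 24-base exon on 1378 of 1391 and 334 of 338 reads. For Ptgds, 1641 of 1645 and 1152 of 1155 informative reads held the exon, but 5031 and 3958 further reads overlapped it with other ends and were not counted. In all, 10 of the 370 microexons had more such reads than informative ones in a library. Low microexons with most reads, beside Uchl1, Apbb1 and Hnrnpk, were those of Snap47 (20 bases, 0 of 910 and 0 of 853 reads), Sept7 (2 exons of 5 bases, each 0 of 631 and 0 of 785), Myl6 (20 bases, 0 of 578 and 0 of 510) and Mpc1 (4 bases, 0 of 420 and 0 of 491). All 7 exons of 3 bases were without an including read, those with most reads after Cyth2 being in Ncam1, Spp1, Cpne9 and Apc. The exon of Snap47 lies in the 5′ UTR and that of Myl6 in transcripts without coding sequence, and no read of either joined the annotated neighbours directly.

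Genes with 3 or more covered microexons could hold microexons with many including reads beside others with few or none. Sh3glb2 (endophilin B2) had its 24-base exon on 289 of 291 reads in replicate 1 and 230 of 232 in replicate 2, its 15-base exon on 0 of 304 and 0 of 238, and its 12-base exon on 0 of 287 and 1 of 229. Overhangs were on 86.2% and 89.5% of the skipping reads of the 15-base exon and on 79.1% and 72.8% of those of the 12-base exon. In Sptan1 the exons of 15 and 18 bases were on every informative read, 54 and 68 for the longer one, while a 24-base exon was on 0 of 18 and 0 of 18 reads, all with a 30-base upstream overhang. Ptk2, the focal adhesion kinase gene, had exons of 9, 18 and 21 bases on 0 of 24, 7 of 11 and 10 of 11 reads in replicate 1 and on 0 of 28, 11 of 12 and 12 of 12 in replicate 2. The skipping reads of the 9-base exon carried a 4-base upstream overhang in 23 cases in each library. Izumo4 had a 27-base exon on all 26 and all 28 reads and exons of 15, 18 and 15 bases on 1 read in all. In Fam92a and Spag9 the exons of up to 15 bases had no including read.

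Lengths divisible by 3 were more frequent among the microexons than among longer exons. They made up 61.9% of the 370, against 38.7% of exons of 28 bases or more, and 62.8% of all annotated microexons. Among intermediate microexons the share was 71.7% (38 of 53), against 49.9% of the longer exons at intermediate use, and among high ones 51.2% (64 of 125). In the annotation, 321 of the 370 lay in coding sequence. The median intron on the upstream side had 1243 bases and on the downstream side 872.5.

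Of the 370 microexons, 342 (92.4%) differed by at most 10 percentage points between replicate 1 and replicate 2, against 98.3% of exons of 28 bases or more. The 342 include the 141 microexons without an including read in either library. Pearson's r was 0.990 across microexons, a description over points that gather at both ends of the scale. Fisher's exact test, two-sided and adjusted over 12107 internal exons by the Benjamini-Hochberg method, called 0.140% of them (17 exons) at an adjusted p under 0.05, and it called 0 of the 190 microexons that could be tested. At an unadjusted p under 0.05, 10 microexons and 214 exons in all differed. The smallest was that of Bin1, with an inclusion of 48.9% in replicate 1 and 32.2% in replicate 2 (adjusted p = 0.334, Fisher's exact test), followed by Dctn4 (21 bases), on 17 of 17 and 12 of 22 reads (adjusted p = 0.671, Fisher's exact test). The test sets 2 libraries against counting noise and compares no condition. Among the 53 intermediate microexons, 38 were within 10 points and the widest gap was 38.5 points, in Dnm2 with 13 reads in each library.

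**Figure D4:**
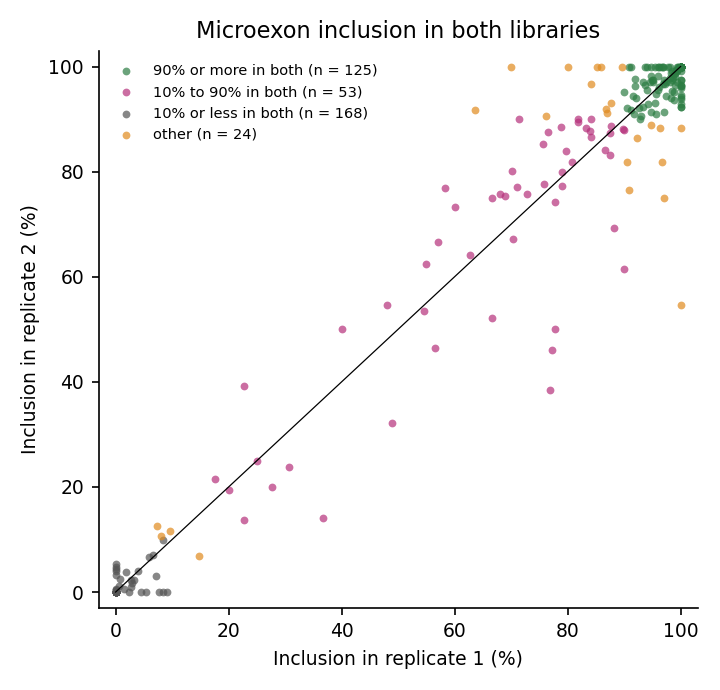
Inclusion (percent) of each of the 370 microexons in replicate 1 (horizontal) and replicate 2 (vertical), coloured by use, with the line of equal values. Most points lie at both ends of the line, 125 at 90% or more and 168 at 10% or less, and 342 are within 10 points of it.

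Because each long read covers much of a transcript, it shows whether a microexon and another exon were used on the same molecule. Pairs of non-overlapping internal exons were tested in each library when at least 20 reads were informative on both exons and each exon was on 5% to 95% of them. A pair was called when Fisher's exact test gave an adjusted p under 0.05 in both libraries in the same direction, and 46.3% of all 588 pairs were called. Of 27 pairs with a microexon, in 15 genes, 15 pairs in 9 genes were called (55.6%). In 11 the exons were used together (40.7%, against 40.6% of all pairs), and in 4 they were used apart (14.8%, against 5.61% of all pairs). Pairs of the same gene share reads and are not independent. Several of the 11 were of Bin1, and both pairs of Sft2d1 among the 4 had identical counts. No tested pair joined 2 microexons.

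The 25-base exon of Cd47 was used together with the 33-base exon downstream of it. Both were on 336 reads and neither on 98 in replicate 1, with 8 reads that held only the shorter exon and 0 that held only the longer one. In replicate 2 the counts were 320, 113, 8 and 1 (adjusted p = 2.67e-87 and 2.56e-92, Fisher's exact test). The reads thus fell into 2 main forms of the cytoplasmic tail region, one with both exons and one without either.

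In Bin1 the 24-base exon went with 5 other exons of 72 to 129 bases. The closest link was to the 108-base exon just upstream, with both on 108 reads, neither on 113, the microexon alone on 1 and the longer exon alone on 0 in replicate 1. In replicate 2 these counts were 57, 124, 1 and 0 (adjusted p = 2.41e-62 and 3.93e-45, Fisher's exact test). The exons of 129 and 93 bases upstream followed the same pattern, with at most 1 read that held the microexon without them in either library. The 72-base exon downstream was on all but 1 of the 111 microexon reads in replicate 1 and on all 59 in replicate 2, and also on 26 and 27 reads without the microexon. A second 108-base exon, further downstream, was on 55 of 111 and 30 of 59 microexon reads, against 5 of 116 and 2 of 124 reads without the microexon.

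**Figure D5:**
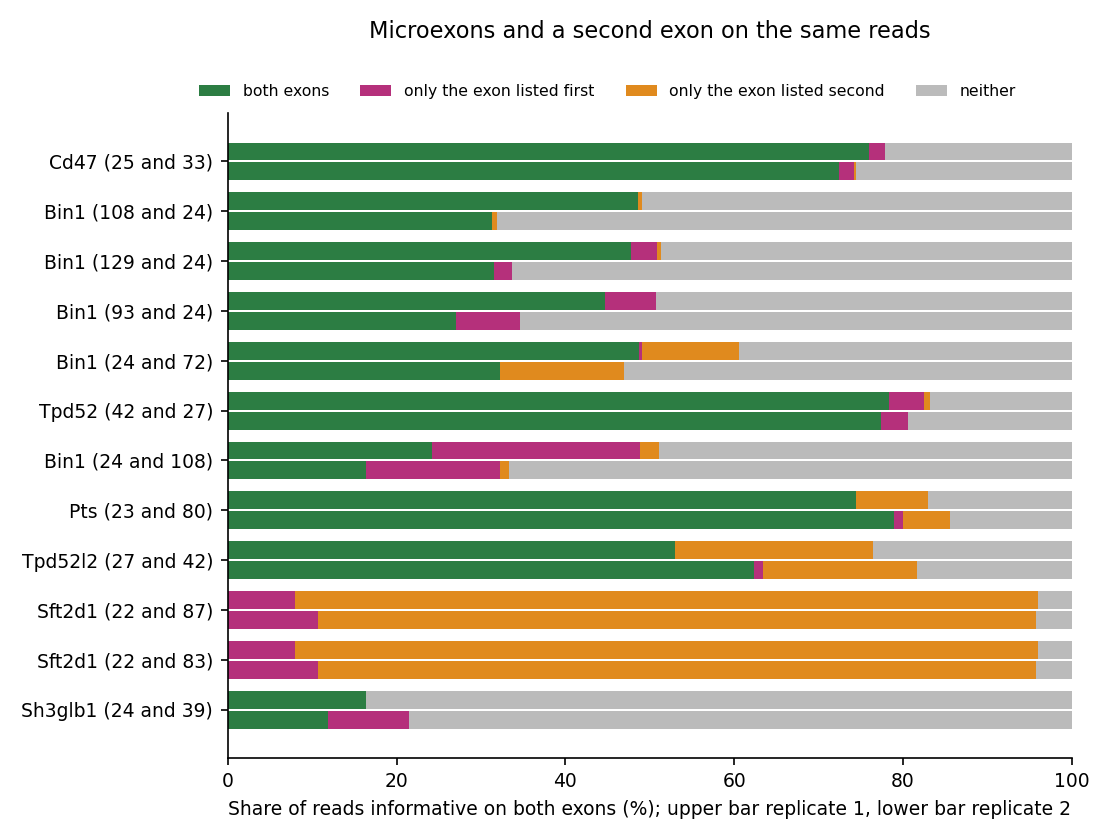
Share of reads (percent, horizontal axis) with both exons, 1 exon or neither, for the 12 called pairs with a microexon and the smallest p-values, each labelled with the lengths of its 2 exons in order of position. The upper bar is replicate 1 and the lower bar replicate 2. Both exons or neither prevail in 10 pairs, and in the 2 pairs of Sft2d1 no read holds both.

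Related genes showed like pairs. In Tpd52, of a family of coiled-coil proteins of vesicle traffic, the 27-base exon and a 42-base exon were on the same 112 reads and both missing from 24 in replicate 1, with 1 read that held only the microexon and 6 that held only the other exon. In replicate 2 the counts were 96, 24, 0 and 4. Its paralogue Tpd52l2 also has exons of 27 and 42 bases: both were on 54 reads and neither on 24 in replicate 1, with 0 reads of the microexon alone and 24 of the longer exon alone. In replicate 2 the counts were 58, 17, 1 and 17. Sequence similarity between the paralogues was not examined.

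Pts codes for an enzyme of tetrahydrobiopterin synthesis. Its 23-base exon was on 61 reads with an 80-base exon and on 0 without it in replicate 1, and on 71 and 1 in replicate 2. In Sh3glb1 the 24-base exon shared 11 reads with a 39-base exon and stood alone on 0 in replicate 1, with 5 and 4 in replicate 2. The 39-base exon was never used without the microexon on these reads.

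Use apart was seen in Sft2d1, of Golgi transport. Its 22-base exon, annotated in transcripts without coding sequence, was on 4 reads in replicate 1 and 5 in replicate 2, and 0 of them held the neighbouring exons of 87 and 83 bases, which were on 44 and 40 other reads. The other 2 pairs used apart, named because they complete the 4, were a 60-base and the 27-base exon of Tpd52l2 and a 35-base and a 27-base exon of Sgce (ε-sarcoglycan). In Sgce 3 reads of replicate 1 and 2 of replicate 2 held both, with 13 and 13 that held only the microexon and 13 and 8 that held only the other. The call of Sgce was lost without models that have a splice site outside the annotation (adjusted p = 0.133, Fisher's exact test) and with annotated ends of the skipping intron (adjusted p = 0.0687, Fisher's exact test). The direction of the Tpd52l2 pair turned when known transcripts alone were counted.

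All 22 splicing regulators on the list of factors that act on microexons were detected, with a summed level of 1852 CPM in replicate 1 and 1887 CPM in replicate 2, or 1869 ± 25.1 CPM (SD, n = 2). With reads on known transcripts alone, scaled to the total of such reads, the sum was 628 CPM. Srrm4 had 17 and 12 reads and Srrm3 26 and 14. Of the polypyrimidine tract binding proteins, the neuronal Ptbp2 had 66 and 78 reads, Ptbp1 14 and 11 and Ptbp3 6 and 5. The most abundant on the list were Celf4 (584 and 601 reads), Rbfox3 (439 and 266), Rbfox1 (195 and 207), Elavl4 (158 and 172), Mbnl2 (143 and 183), Celf2 (132 and 151) and Srsf11 (116 and 108), all RNA-binding proteins, followed by Qk (96 and 130), Rnps1 (90 and 107), Elavl3 (84 and 91) and Khdrbs3 (79 and 78). Rbfox2 (49 and 46), Mbnl1 (41 and 84), Nova1 (34 and 23), Khdrbs2 (20 and 32), Elavl2 (17 and 55) and Nova2 (13 and 7) were lower.

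At the edge of the read minimum, the microexons of Abi2 (18 bases, 2 of 26 and 0 of 10 reads), Cacnb1 (20 bases, 19 of 19 and 10 of 10) and Sdr39u1 (10 bases, 0 of 14 and 0 of 10) were just inside. Those of Mfsd6 (25 bases, 16 of 21 and 2 of 8), Pcnt (21 bases, 8 of 9 and 8 of 11) and Rnf185 (19 bases, 6 of 8 and 21 of 22) were just outside. At the edge of length, the 27-base exons of Tmeff2 (87 of 87 and 115 of 116) and Snrpe (153 of 158 and 176 of 182) were inside, and a 28-base exon of Uxs1 (21 of 22 and 20 of 20), a 29-base exon of A830018L16Rik (29 of 29 and 29 of 29) and a 30-base exon of Tex30 (0 of 13 and 1 of 17) were outside.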

How the data were processed

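Per the file headers, the authors deposited raw counts of reads per TALON transcript model and library, without normalization (TALON sorts long reads into known and new models). Other deposited values were exon number and length per model, and the deposited annotations hold positions of GENCODE M21 and of the added models on mm10. The deposited notes say that counts came from an alignment kept apart from an unfiltered one. For the instrument, aligner and versions, no source used here gives a name.

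Reads on models of more than 1 exon were summed per internal exon with Python 3.11.15, pandas 2.3.3 and SciPy 1.17.1. Inclusion is given as mean ± SD of 2 libraries, with 95% Clopper-Pearson intervals for a single library, and floors of 3 reads for a count of 0. Both cover counting error only. At the minimum of 10 reads such a floor is 30%. Between libraries and between exons, Fisher's exact test was used with Benjamini-Hochberg adjustment, after the functions were tested on simulated data. edgeR 4.0.16 and DESeq2 1.42.0 supplied scaling factors for the regulators alone. Gene levels are CPM.

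All 2858 annotated transcripts of the genes had the same exons in the reference used for sequences. The exons, the lists and the rule for named genes were chosen with earlier results of these data known. That rule took, per role, the 4 intermediate microexons with most reads, the 8 high and 8 low ones with most reads, the 5 shortest, called exons, up to 12 called pairs, genes with 3 or more microexons, all regulators and the exons at the edges. Some microexons that the rule took are not reported here. Other genes were named after their values were seen. P-values measure the spread of counts only, and both libraries may stem from one donor.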

Additional observations from a re-analysis of the deposited data

How the results depend on the processing

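The median inclusion of the microexons depended on every choice tried. It was 55.9% over both libraries, 70.3% with at least 20 reads, 25% with at least 1 read, 100% with known transcripts only, 61.9% without incomplete matches (ISM), 75% without models that use an unannotated splice site (NNC) and 77.3% with both ends of the skipping intron annotated. A further 2 alternatives chosen after seeing the data gave 77.9% (reads with a short overhang left out) and 90% (18 to 27 bases only). With the read minimum asked of 1 library only, replicate 1 gave 36.7% over 447 microexons and replicate 2 gave 50% over 409. These sets are larger than the 370 that reached the minimum in both libraries. The median of longer exons was 100% under each of these settings. Intermediate microexons numbered 53 of 370 (14.3%) as reported. They became 32 of 254 (12.6%) with at least 20 reads and 99 of 885 (11.2%) with at least 1 read. With known transcripts only they were 15 of 208 (7.21%), without NNC 33 of 325 (10.15%) and with annotated ends 34 of 323 (10.5%). Limits of 20% to 80% gave 28 of the 370, and limits of 5% to 95% gave 80. Replicate 1 alone gave 85 of 447 (19.0%) and replicate 2 alone 77 of 409 (18.8%). They numbered 42 of 308 (13.6%) without ISM, 37 of 324 (11.4%) with overhang reads left out and 50 of 263 (19.0%) at 18 to 27 bases. The libraries differed in 0 of 190 tested microexons as reported, beside 17 of 12107 exons in all. Without ISM they differed in 1 of 158 (Rpl41), beside 24 of 10558 exons. Without NNC they differed in 1 of 130 (Bsg), beside 18 of 8767 exons. Under the other 5 settings they differed in 0. Called pairs with a microexon numbered from 10 of 11 with known transcripts only, beside 71 of 89 pairs in all, to 21 of 55 with at least 10 reads, beside 324 of 1056. Of the 15 reported, 14 or 15 kept their call and direction under each alternative except known transcripts only, where 9 did. The pair of the 60-base and 27-base exons of Tpd52l2 turned direction there, to a log2 odds ratio of 4.11. Scaling by edgeR or DESeq2 factors left the regulators at 1869 CPM. With 2 libraries such factors offset each other in the mean, so this value could hardly change. A single library gave 1852 to 1887 CPM, and known transcripts only gave 628 CPM. Of the 21 intermediate microexons that the rule for named genes took, 13 moved by more than the SD and 4 did not with known transcripts only, where the others had no value, and Dctn1 and Dtna were then at 0%. The causes of these shifts were not tested. No paired analysis was possible because both libraries form a single group. Low read numbers limit single exons: at 10 reads, a count of 0 allows up to 30% by counting error alone.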
